A study of Mus musculus with 6 samples.

Results

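Chromatin regions that carried both trimethylated lysine 4 (H3K4me3) and trimethylated lysine 27 (H3K27me3) of histone H3 in 2 populations of mouse γδ thymocytes were described from chromatin immunoprecipitation and sequencing (ChIP-seq) peak lists. Overlapping peaks of the 4 histone lists (each mark in Sox13hi and in Sox13lo cells) were merged into regions on chromosomes 1 to 19. A region was selected on the presence of at least 1 peak of each list. This left 1803 of 37017 merged regions (4.87%), called shared bivalent regions here. The regions were thus chosen by the histone peaks themselves, and the presence of both marks in both populations is the rule, not a result.

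The cells came from C57BL/6 mice with the genotype TCRbeta KO.Sox13 ECFP KI/+, so both populations lacked TCRβ and carried a cyan fluorescent reporter on 1 of their Sox13 alleles. Thymocytes positive for the γδ receptor and for CD24 were sorted by that reporter into Sox13hi (CFPhi) and Sox13lo (CFPlo/-) cells, and each histone ChIP used 250000 of them. SOX13 itself was mapped in Sox13hi cells alone, from 1000000 cells. Each population has 1 library per mark and the labels name no separate animals, so the populations could not be compared against the spread between replicates, and no p-value is given. The age of the mice is not given in the sources used here, and the input library was not used here.

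H3K4me3 marks promoters that are active or held ready, through the COMPASS and MLL methyltransferases, whereas H3K27me3 is laid down by Polycomb repressive complex 2 (PRC2) at silent genes. Promoters that carry both are called bivalent. They are best known at genes of developmental regulators that are silent but can be switched on or shut down as a lineage is chosen. SOX13 is an HMG-box transcription factor known for its part in the development of a subset of γδ T cells. ChIP on a sorted population reads many cells at once, so marks on the same nucleosome and marks on different alleles or in different cells cannot be told apart. The lists are on mouse build mm9, for which no gene annotation was at hand, so regions are named by position.

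Shared bivalent regions were 350 to 5650 bp wide, with a median of 1300 bp. The centre of their Sox13hi H3K4me3 span was usually covered by H3K27me3. H3K27me3 peaks covered that centre in 64.6% of the regions in Sox13hi cells and 64.9% in Sox13lo cells, and the plot of peak coverage by distance shows no dip of H3K27me3 there. At 1000 bp from the centre the Sox13hi lists covered 9.37% of the regions with H3K4me3 and 16.5% with H3K27me3. In Sox13lo cells those shares were 9.29% and 13.5%. The plot is centred on H3K4me3 and counts all peaks nearby. An H3K27me3 peak that lies off centre thus adds coverage far out, and these shares do not measure the width of a mark.

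**Figure D1:**
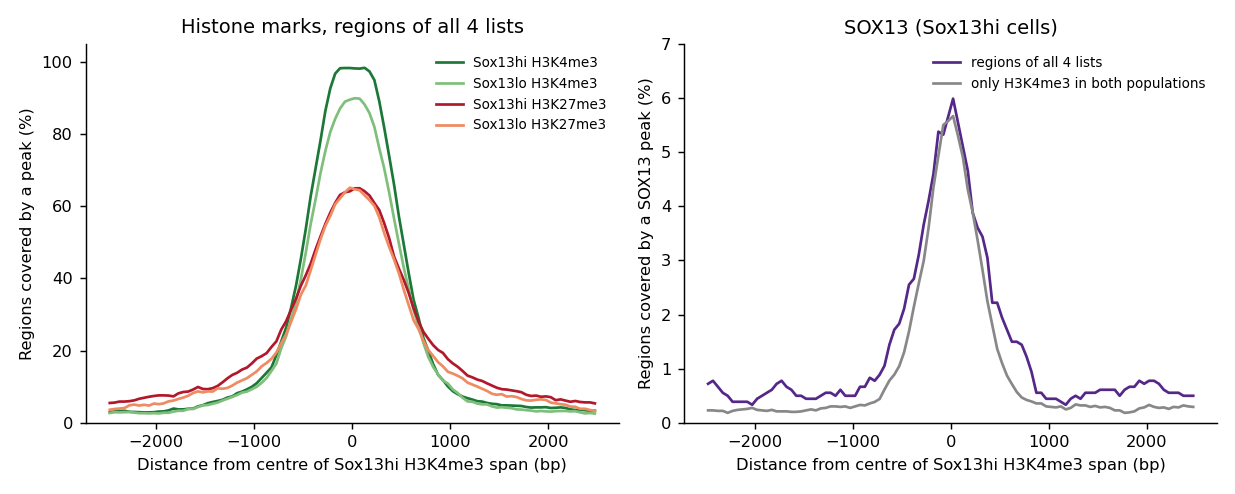
Left, share of the 1803 shared bivalent regions covered by a peak of each histone list (percent) against distance from the centre of the Sox13hi H3K4me3 span (bp). Right, the same for SOX13 peaks, with the 10902 regions holding only H3K4me3 in both populations beside them. SOX13 coverage at the centre was 5.82% in shared bivalent regions and 5.62% in the others, and at 500 bp it was 1.89% and 1.07%.

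The 2 marks nearly always touched. H3K4me3 and H3K27me3 peaks of the same population shared at least 1 bp in 1768 regions (98.1%, 95% exact binomial interval 97.3 to 98.6%) in Sox13hi cells. The background, all regions holding both marks in Sox13hi cells, was 97.6%. In Sox13lo cells they overlapped in 1754 regions (97.3%, 96.4 to 98.0%), where the background was 97%. Both shares lie near their backgrounds, which include the shared bivalent regions themselves. All these regions are built by merging overlapping peaks, so nothing particular to the shared bivalent regions is read from the overlap. These and the later intervals treat regions as independent and cover counting error only.

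Marks overlapped in both populations in 1721 regions (95.5%), and at least 1 base lay under all 4 lists in 1605 (89.0%). The stretch under all 4 lists had a median of 350 bp and reached 3050 bp. The shared stretch within a population was longer, with a median of 550 bp in Sox13hi cells and 500 bp in Sox13lo cells. Only 2 regions had the marks side by side in both populations. The marks lay side by side in 35 regions in Sox13hi cells, 10 of them abutting, with gaps of up to 600 bp. In Sox13lo cells there were 49 such regions, 11 of them abutting, with gaps of up to 800 bp. Such regions entered the set because a peak of the other population bridged the marks.

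The arrangement of overlapping marks was set beside that of all regions holding both marks in a population, 2850 in Sox13hi and 2519 in Sox13lo. These backgrounds include the 1803 shared bivalent regions themselves, so closeness to them is partly built in. In Sox13hi cells the spans were staggered, each extending past the other on 1 side, in 767 regions (42.5%, 40.2 to 44.9%), with a background of 42.1%. The H3K27me3 span lay inside the H3K4me3 span in 658 (36.5%, 34.3 to 38.8%), with a background of 38.8%, and the opposite held in 333 (18.5%, 16.7 to 20.3%), with a background of 16%. In Sox13lo cells the spans were staggered in 680 (37.7%, 35.5 to 40.0%), with a background of 36.8%. H3K27me3 lay inside in 603 (33.4%, 31.3 to 35.7%), with a background of 35%, and H3K4me3 in 451 (interval 23.0 to 27.1%), with a background of 24.1%. The 16% background in Sox13hi lay below the interval of its class. The Sox13hi background for H3K27me3 inside (1107 of 2850) lay just above its interval, which ended at 38.77%. These intervals count regions of 1 library per mark, so they do not compare the populations. The lists also differ in length, and their depth is unknown. A region often changed class: 798 of 1803 (44.3%) had the same arrangement in both populations. H3K27me3 was inside in both in 308 regions, H3K4me3 was inside in both in 165. In a further 86 regions H3K27me3 was inside in Sox13hi and H3K4me3 in Sox13lo, and in 63 it was the reverse.

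**Figure D2:**
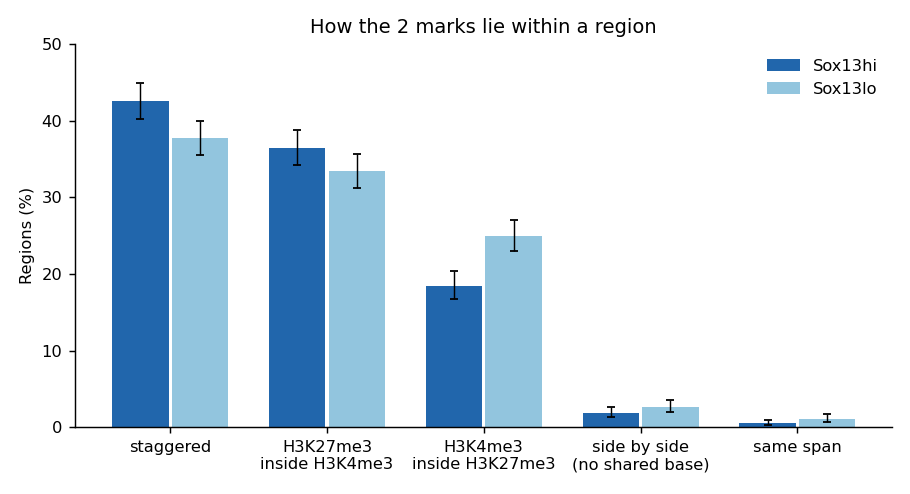
Share of the 1803 shared bivalent regions (percent) in each arrangement of the H3K4me3 and H3K27me3 spans, Sox13hi left and Sox13lo right; bars start at 0 and lines are 95% exact binomial intervals. Staggered spans made up 42.5% in Sox13hi and 37.7% in Sox13lo, and side by side 1.94% and 2.72%.

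H3K27me3 reached past the H3K4me3 span on 1 side in 893 regions (49.5%) and on 2 sides in 242 (13.4%) in Sox13hi cells. The numbers in Sox13lo cells were 859 (47.6%) and 321 (17.8%). The centres of the 2 spans were a median of 175 bp apart in each population, with an upper quartile of 350 bp. The largest distance was 1700 bp in Sox13hi and 2750 bp in Sox13lo. H3K27me3 was more often broken into pieces than H3K4me3. Sox13hi cells had 2 or more H3K27me3 peaks in 433 regions (24.0%), and in 344 of these a gap between them was wholly covered by H3K4me3. Sox13lo cells had 400 such regions (22.2%), 246 of them with a gap filled in this way. H3K4me3 was a single peak in 1703 regions in Sox13hi cells and 1662 in Sox13lo cells.

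H3K4me3 was usually the wider mark. It had a median of 1000 bp under peaks per region in Sox13hi cells and 900 bp in Sox13lo cells, against 750 and 700 bp for H3K27me3. Per region, H3K4me3 was wider than H3K27me3 in 1244 (69.0%) in Sox13hi cells, with a median ratio of 1.32, and in 1106 (61.3%) in Sox13lo cells, with a median ratio of 1.22. H3K27me3 was at least 2 times as wide in 64 regions (3.55%) in Sox13hi cells and 156 (8.65%) in Sox13lo cells. Between populations, H3K4me3 was wider in Sox13hi in 1106 regions and narrower in 528, with a median ratio of 1.09. H3K27me3 was wider in Sox13hi in 933 regions and narrower in 760, with a median ratio of 1.05. Peak width follows the authors' score closely (Spearman's rho across regions from 0.86 to 0.90 in the 4 lists), and both depend on depth, so these ratios carry no direction for the chromatin itself.

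For H3K27me3, the shared bivalent regions held much of the highest-scoring part of each list, while for H3K4me3 they sat in the middle. Each region was given the percentile, within the deposited list, of its highest-scoring peak (100 is the highest score). The median percentile for H3K27me3 was 91.5 in the Sox13hi list (quartiles 83.3 and 96.3) and 82.3 in the Sox13lo list (66.6 and 92.8). For H3K4me3 the medians were 57.9 (44.7 and 71.4) and 49.6 (36.4 and 65.3). A best peak in the top 10% of the list was found for H3K27me3 in 1006 regions (55.8%) in Sox13hi and 600 (33.3%) in Sox13lo, with backgrounds of 10.1% and 10.5%. For H3K4me3 the top 10% held 103 (5.71%) and 68 (3.77%), with backgrounds of 10.4% and 10.5%. The rule itself drew on these lists, so the ranks describe the regions and nothing is read from them.

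Seen from the lists, 1071 of the 1469 H3K27me3 peaks in the top 10% by score on chromosomes 1 to 19 in Sox13hi (72.9%) and 619 of the 725 in Sox13lo (85.4%) lay in shared bivalent regions. The whole lists had 15.8% and 31.1% of their peaks there, and 30.5% and 46.4% of their covered bases. H3K27me3 peaks in these regions had a median width of 550 bp in each population, against 250 bp in Sox13hi and 300 bp in Sox13lo for those elsewhere. Of the H3K4me3 lists, 9.57% and 10.9% of peaks lay in them. H3K4me3 peaks in the top 10% were in these regions in 103 of 2036 cases in Sox13hi (5.06%) and 68 of 1838 in Sox13lo (3.70%).

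**Figure D3:**
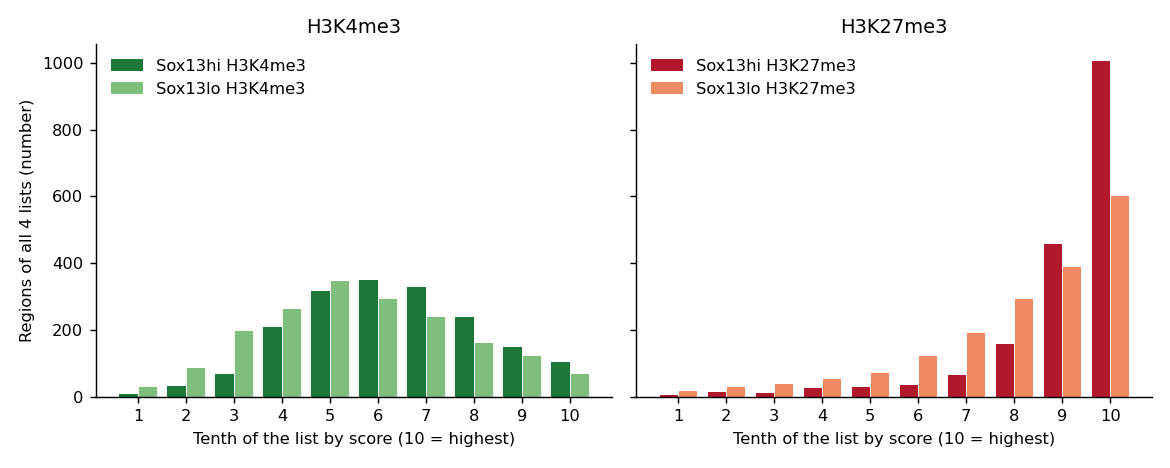
Number of shared bivalent regions whose best peak falls in each 10% step of its list by score (step 10 is the highest), for H3K4me3 on the left and H3K27me3 on the right, with Sox13hi left of Sox13lo in each pair; bars start at 0. H3K27me3 counts climb to 1006 and 600 in the highest step, whereas H3K4me3 counts peak at 351 in step 6 in Sox13hi and 346 in step 5 in Sox13lo.

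The regions kept their order between populations better for H3K4me3 than for H3K27me3. Across the 1803 regions, Spearman's rho between the Sox13hi and Sox13lo scores was 0.83 for H3K4me3 and 0.53 for H3K27me3. In regions with 1 mark alone the gap was wider, at 0.94 for the 10902 with only H3K4me3 and 0.37 for the 966 with only H3K27me3. With the regions sorted by score within each list and split into 3 equal groups, 483 of the 600 highest by H3K4me3 in Sox13hi (80.5%) were also in the highest group in Sox13lo. For H3K27me3 it was 368 of 599 (61.4%). The highest group in Sox13hi and the lowest in Sox13lo were combined in 14 regions for H3K4me3 and 61 for H3K27me3, and the lowest in Sox13hi and the highest in Sox13lo in 7 and 78. Within a population, the 2 marks ranked the regions only weakly alike (rho 0.29 in Sox13hi and 0.19 in Sox13lo). Regions and libraries are shared between these correlations, and the restricted range of H3K27me3 scores enters them.

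The 5 regions with the highest mean percentile over the 4 lists were at percentile 93.9 or above in each list. The first was chr5:118476101-118479749, 3650 bp wide, at percentiles 97.2 and 97.1 for H3K4me3 and 99.9 and 99.5 for H3K27me3 (Sox13hi, then Sox13lo), with 1700 bp under all 4 lists. It held no SOX13 peak. The second, chr6:115943001-115945599, had percentiles 99.2 and 96.2 for H3K4me3 and 97.4 and 99.6 for H3K27me3, and it held a SOX13 peak. The others were chr13:55572551-55574549, chr8:72404851-72407049, which held 2 SOX13 peaks, and chr4:114579701-114582399. On chromosome 8 the H3K27me3 span enclosed H3K4me3 in both populations.

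The widest regions reached their size in different ways. The widest of all, chr5:141082301-141087949 (5650 bp), was made by H3K4me3 of 1 population. H3K4me3 covered 2200 bp in Sox13hi and 5400 bp in Sox13lo, and H3K27me3 covered 1300 bp in Sox13hi and 400 bp in Sox13lo, with no base under all 4 lists. By contrast, H3K27me3 made up most of chr3:89122451-89127249 (4800 bp), with 4550 bp in Sox13hi and 4050 bp in Sox13lo, against 1300 and 2200 bp of H3K4me3. H3K27me3 was also the wider mark at chr11:119406751-119411599 (4850 bp) and chr11:74978601-74982999 (4400 bp) in both populations. At chr5:52503951-52508099 (4150 bp) H3K4me3 covered 3450 bp in Sox13hi and 1900 bp in Sox13lo, and H3K27me3 covered 2600 and 3550 bp.

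Some shared regions stood far apart in rank between the populations. For H3K27me3, the widest gaps with the higher percentile in Sox13hi were at chr5:118604751-118605799 (87.7 in Sox13hi, 1.58 in Sox13lo), chr4:8575051-8576249 (91.1 and 5.54) and chr12:113959901-113961599 (86.9 and 2.11). In the other direction they were at chr4:154416601-154418049 (8.45 in Sox13hi, 97.8 in Sox13lo), chr8:59800201-59801199 (5.38 and 81.2) and chr2:130222651-130223699 (11.9 and 82.0). In each of these 6 regions the weaker H3K27me3 peak covered 100 or 150 bp. None held SOX13.

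For H3K4me3 the widest gaps were smaller. Higher in Sox13hi were chr6:41071301-41072199 (96.5 in Sox13hi, 44.6 in Sox13lo), chr4:22414301-22415499 (54.6 and 4.40) and chr17:56649551-56651949 (72.8 and 23.9). Lower in Sox13hi were chr14:70476601-70479499 (49.2 and 83.4), chr7:88597951-88599699 (31.3 and 64.0) and chr12:25365301-25366549 (2.45 and 32.7). Of these 6, only the chromosome 6 region held SOX13. It also carried the highest-scoring peak of the whole Sox13hi H3K27me3 list, at percentile 100, against 88.6 in Sox13lo. Whether this region is enriched without an antibody was not tested, which limits all of its values.

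At the edge of the rule stood regions with 3 of the 4 lists, 1419 in all. The Sox13lo H3K27me3 peak was missing in 570, the Sox13hi one in 342, the Sox13lo H3K4me3 peak in 281 and the Sox13hi one in 226. In 13.9% to 26.0% of each class, the missing list had a peak within 1 kb. The mark found in only 1 population there ranked lower than in shared bivalent regions. The classes were set by which peaks of these same lists were called, so this difference describes them and nothing is read from it. The median H3K27me3 percentile was 75.2 in the first class and 58.4 in the second, and the median H3K4me3 percentile was 31.6 and 21.1 in the other 2. Just inside, the lowest percentiles among shared bivalent regions were 2.45 and 1.64 for H3K4me3 and 5.38 and 1.58 for H3K27me3, Sox13hi first. The lowest Sox13lo H3K4me3 peak covered 100 bp of a 400 bp region, chr1:136409801-136410199.

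Shared bivalent regions occurred on every autosome in similar proportion to H3K4me3 regions. Their density ran from 0.473 per Mb on chromosome 3 to 1.33 per Mb on chromosome 11. Of the 13617 regions with H3K4me3 in both populations, 13.2% were shared bivalent (12.7 to 13.8%). By chromosome this share ran from 10.9% on chromosome 16 (8.12 to 14.1%) to 15.9% on chromosome 2 (13.8 to 18.2%). The interval of every chromosome but 2 included the pooled share.

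Along the chromosomes the regions lay singly or in small groups. The median distance to the nearest other shared bivalent region was 194900 bp, against 29350 bp between regions with only H3K4me3 in both populations, which are more numerous. Another shared bivalent region lay within 50 kb for 498 (27.6%) and within 1 kb for 120 (6.66%). The share with a like region within 50 kb over all regions with H3K4me3 in both was 68.4%. Since density sets these distances, the state of the neighbour was also compared. The nearest region with H3K4me3 in both populations was itself shared bivalent for 425 of the 1803 (23.6%, 21.6 to 25.6%), against 10.3% (9.73 to 10.8%) of the 11814 other such regions, with a background of 12%. For neighbours at least 5 kb away the shares were 15.5% (13.7 to 17.5%) and 10.6%, whose interval reached 11.2%. The difference was smaller beyond 5 kb, and its intervals were separate there too. These intervals treat regions as independent, but shared bivalent regions that are each other's nearest neighbour are both counted. The intervals can therefore be too narrow, and nothing is concluded from their separation.

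**Figure D4:**
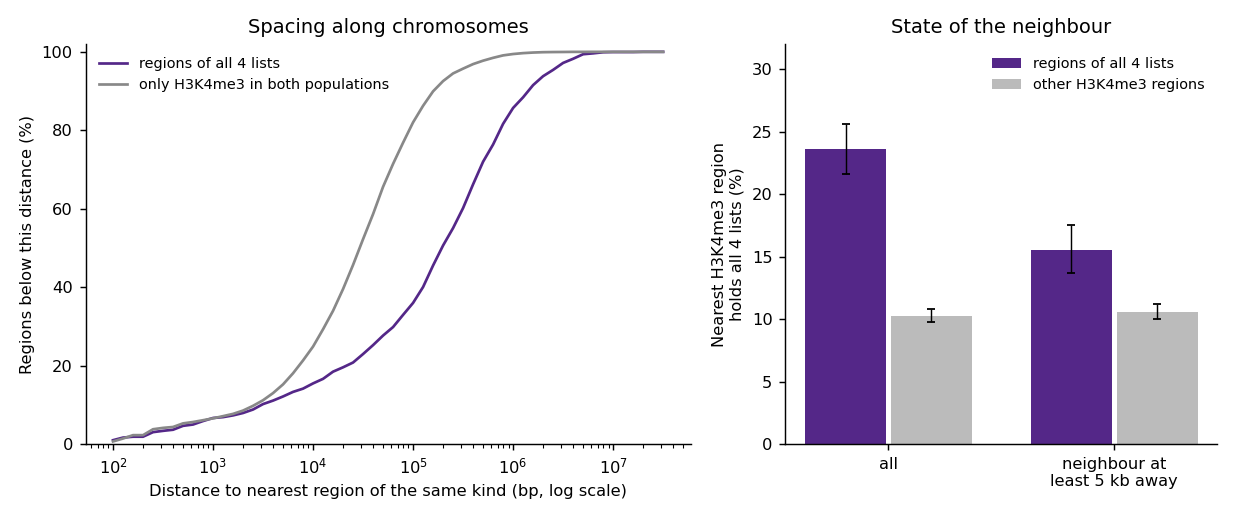
Left, cumulative share of regions (percent) whose nearest region of the same kind lies below a distance in bp (log axis), for shared bivalent regions and for regions with only H3K4me3 in both populations. Right, share of regions whose nearest neighbour with H3K4me3 in both populations holds all 4 lists, with 95% exact binomial intervals; it was 23.6% for shared bivalent regions and 10.3% for the other H3K4me3 regions, and 15.5% and 10.6% for neighbours at least 5 kb away.

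Chains of regions less than 50 kb apart numbered 211, of which 54 held 3 or more and took in 184 regions (10.2%). The largest, chr11:118883501-118952799, held 6 regions 2050 to 2600 bp wide within 69.3 kb. Its H3K27me3 was uneven. The region at chr11:118907751-118910099 was at percentile 99.3 in Sox13hi and 98.7 in Sox13lo, and the one at chr11:118883501-118885549 was at 57.8 and 20.9, with H3K4me3 at 90.2 and 94.4. SOX13 was present at chr11:118883501-118885549 and at chr11:118901551-118903699.

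A further 6 chains held 5 regions each. They were chr2:74493001-74601799, chr6:52161601-52210949, chr7:28118151-28232299, chr7:52616551-52671549, chr15:98557901-98638099 and chr16:18581351-18627099. The chromosome 2 chain spanned 108.8 kb and 40 merged regions, none with H3K4me3 alone in both populations and 10 with H3K27me3 alone in both. The chromosome 16 chain spanned 45.8 kb and likewise had no region with H3K4me3 alone in both, and 3 of its 5 regions held SOX13. No SOX13 peak lay within the 55 kb of the second chromosome 7 chain. Regions in chains of 3 or more had a median Sox13lo H3K4me3 percentile of 42.4, against 52.5 for regions standing alone, and a median Sox13lo H3K27me3 percentile of 87.5, against 81.6. In Sox13hi the medians were 52.2 against 59.7 for H3K4me3 and 93.3 against 91.2 for H3K27me3.

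SOX13, which the rule did not use, was present at a larger share of shared bivalent regions than of regions with H3K4me3 alone. A SOX13 peak overlapped 236 of the 1803 (13.1%, 11.6 to 14.7%), with a background of 6.2% over all merged regions. Regions with only H3K4me3 in both populations held SOX13 in 1065 of 10902 (9.77%, 9.22 to 10.3%). The difference of 3.32 percentage points had an interval of 1.69 to 5.06, which excludes 0. Regions with only H3K27me3 in both, 500 bp wide at the median, held it in 28 of 966 (2.90%, 1.93 to 4.16%). The 4 kinds of region with 3 of the 4 lists held it in 6.19% to 10.2%. SOX13 peaks and histone peaks come from different libraries of the same sorted cells, and enrichment at these sites without an antibody was not tested.

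Wider regions have more room for a peak, so the comparison was repeated within width. Counting only SOX13 on the Sox13hi H3K4me3 peaks, the shares were 12.8% (11.3 to 14.4%) and 9.70% (9.16 to 10.3%). Among regions with 550 to 1000 bp of Sox13hi H3K4me3, SOX13 lay on it in 10.8% of shared bivalent regions and 7.47% of those with only H3K4me3, a difference of 3.31 points (1.02 to 5.89). At 1050 to 1500 bp the shares were 13.0% and 8.77% (4.20 points, 1.37 to 7.39). At 1550 to 2000 bp they were 18.8% and 12.3% (6.50 points, 1.08 to 12.7). Above 2000 bp they were 22.4% and 16.8%, with an interval that includes 0 (-2.26 to 14.8). Regions with at most 500 bp of H3K4me3 went the other way, with 7.47% against 15.9%, a difference of -8.41 points (-12.6 to -2.96). So the difference had an interval above 0 in the 3 middle width classes and below 0 in the narrowest. These intervals cover counting error only. By the width of the whole region the excess was 2.94 points (0.0557 to 6.27) at 550 to 1000 bp, 2.99 (0.571 to 5.71) at 1050 to 1500 bp and 7.05 (1.43 to 13.1) above 2000 bp. At 1550 to 2000 bp it was 1.24 points, with an interval that includes 0 (-2.45 to 5.39). At most 500 bp wide, 0 of 15 shared bivalent regions held SOX13 (exact interval up to 21.8%), against 18.3% of those with only H3K4me3, a difference of -18.3 points with an interval that includes 0 (-21.8 to 3.70).

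By H3K4me3 score, the excess had intervals above 0 from the 60th percentile up. SOX13 was counted anywhere in the region here, and the score classes are not matched for region width. Over all classes the median width was 1300 bp for shared bivalent regions and 1100 bp for those with only H3K4me3. Among regions above the 80th percentile of the Sox13hi H3K4me3 list, 61 of 251 shared bivalent regions held SOX13 (24.3%, 19.1 to 30.1%), against 13.1% (12.0 to 14.2%) of those with only H3K4me3. Between the 60th and 80th percentile the shares were 12.5% (9.88 to 15.5%) and 7.05% (6.19 to 7.98%). Below the 60th percentile the intervals of all 3 differences included 0. Within the shared bivalent regions, the highest 20% by Sox13hi H3K4me3 score held SOX13 in 22.4% (18.2 to 27.1%) and the other 20% steps in 8.89% to 11.9%. For Sox13hi H3K27me3 the highest 20% had 19.9% (15.9 to 24.4%) and the others 9.42% to 13.6%. These 2 top groups were also the widest, with medians of 1900 and 1750 bp.

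**Figure D5:**
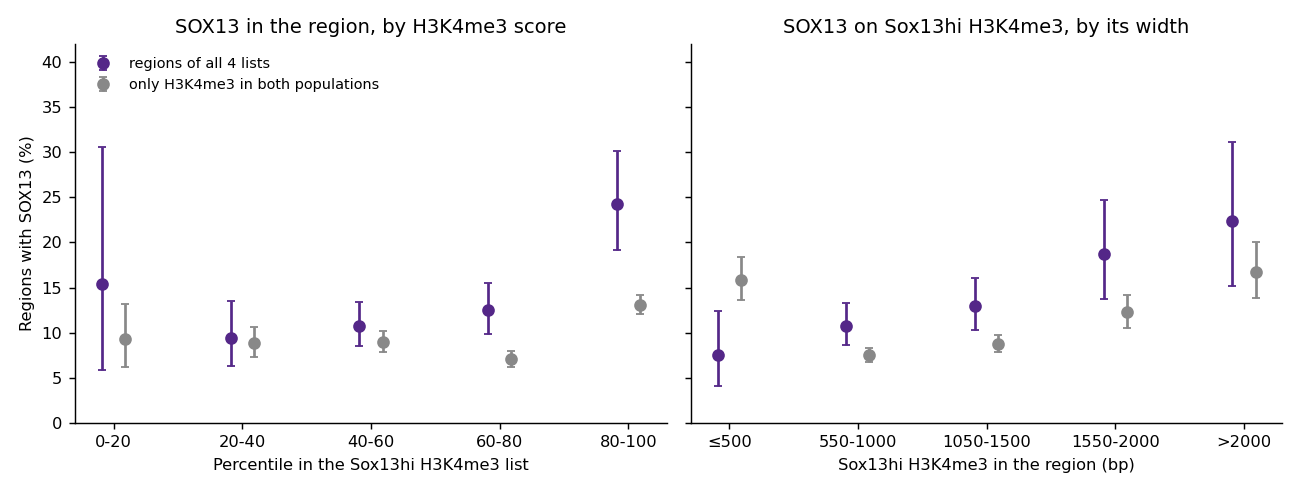
Share of regions with SOX13 (percent, points) with 95% exact binomial intervals (lines), for shared bivalent regions and regions with only H3K4me3 in both populations. Left, SOX13 anywhere in the region by percentile in the Sox13hi H3K4me3 list; right, SOX13 on the Sox13hi H3K4me3 peaks by their width. Above the 80th percentile the shares were 24.3% and 13.1%, and at most 500 bp wide 7.47% and 15.9%.

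Within the regions, SOX13 lay mostly where both marks overlapped. The 236 regions held 242 SOX13 peaks, with 1 peak in 231 regions, 2 in 4 and 3 in 1. Of the 238 peaks centred inside a region, 177 (74.4%, 68.3 to 79.8%) had their centre under both Sox13hi marks, which cover 44.4% of the bases of all shared bivalent regions. H3K4me3 alone held 48 (20.2%, 15.3 to 25.8%), against 32.7% of bases, and H3K27me3 alone 10 (4.20%, 2.03 to 7.59%), against 14.6%. Whether the zone under both marks is also the middle of a region was not tested. SOX13 lay mostly in the middle in regions without H3K27me3 as well. The SOX13 centre was in the inner 50% of the region for 174 of 242 peaks (71.9%) in shared bivalent regions and for 855 of 1108 (77.2%) in regions with only H3K4me3.

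SOX13 peaks in shared bivalent regions ranked above the whole SOX13 list. Their median percentile was 76.2, against 80.2 for SOX13 peaks in regions with only H3K4me3 and 49.0 for all SOX13 peaks on chromosomes 1 to 19. The top 10% of the list made up 22.7%, 32.8% and 10.1% of these 3 groups. Shared bivalent regions thus held SOX13 more often than H3K4me3-only regions, but a smaller part of their SOX13 peaks was in the top 10%. In number, such peaks were 55 in the 1803 shared bivalent regions and 363 in the 10902 with only H3K4me3. The 1567 shared bivalent regions without SOX13 had a SOX13 peak within 5 kb in 10.1% (8.70 to 11.7%), against 8.22% (7.69 to 8.78%) of 9837 regions with only H3K4me3 and no SOX13.

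The region with the highest-scoring SOX13 peak was chr6:41071301-41072199, 900 bp wide, with a SOX13 score of 523. This is the region with the widest H3K4me3 rank gap between the populations, named above, and H3K27me3 lay inside H3K4me3 in both. The same limit applies to its SOX13 score, since enrichment without an antibody was not tested there. The next SOX13 score was 75.5, at chr15:12802151-12803449. It was followed by chr2:27354251-27355899 (72.0), where all 4 lists shared 1550 of 1650 bp, chr6:136950951-136952049 (67.0) and chr5:105356551-105357699 (53.8). These last 4 ranked between percentiles 53.4 and 99.3 in every histone list, with no gap between populations above 7 percentile points. Regions with SOX13 were wider than those without, with medians of 1450 and 1300 bp, and had higher median percentiles in each histone list, for example 66.0 against 57.2 for Sox13hi H3K4me3.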

How the data were processed

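ChIP-seq peaks of SOX13 (Sox13hi) and of H3K4me3 and H3K27me3 (Sox13hi and Sox13lo) were used, 1 list per library. Per the labels' protocols, cells were fixed with 1% formaldehyde, and libraries had 17 amplification cycles and fragments of 300 to 500 bp. Coordinates are on mm9, per the submitters' processing notes. How peaks were called, with what threshold and control, is not given in the sources used here. Each deposited list gives a peak a score of the authors' own, of unstated definition, which was used only to rank peaks within a list. Read depth is unknown, and it limits which peaks could be called.

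The deposited lists hold 20444 and 18471 H3K4me3 peaks, 14842 and 7395 H3K27me3 peaks (Sox13hi, then Sox13lo) and 13807 SOX13 peaks. Starts lie on a 50 bp grid and ends 1 bp short of it, so widths include the last base. Starts are printed from 1 and ends as deposited. Histone peaks sharing at least 1 bp were merged, on chromosomes 1 to 19. Intervals are 95% exact (Clopper-Pearson), and differences of shares have a Newcombe-type interval built from them. A background is the same share over all regions that could show the feature. No test was run, since each group has 1 library. Named regions are the 5 highest by mean percentile, the 5 widest, the 5 with the highest SOX13 score, the 3 with the largest rank gap per mark and direction, and the 3 largest chains, with ties kept. The lowest-ranked regions were chosen after their values were seen. The regions and the comparisons were chosen with earlier results of these data known. Alternatives required overlap of 50% or more of the shorter peak, or used peaks within 1 kb joined, the top 50% of each histone list, and equal list lengths per mark. The alternatives on SOX13 peaks, on regions with overlapping marks and on chain distance were added after seeing the data. Genes and sequence at the regions were not analysed here, because the tables at hand are on another build.

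Python 3.11.15, NumPy 2.4.6, pandas 2.3.3, SciPy 1.17.1 and matplotlib 3.10.9 were used. The code was tested on simulated data, and its 3 counts compared with bedtools 2.31.1 were equal.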

Additional observations from a re-analysis of the deposited data

How the results depend on the processing

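No paired analysis was possible because every mark was profiled once per population, and there was no replicate to leave out. The SOX13 difference from regions with only H3K4me3 stayed positive with an interval above 0 in each of the 7 alternatives run on it, from 2.53 to 6.50 percentage points. These alternatives did not match regions for width or score. Within such classes, as given above, some intervals included 0, and the difference was negative in the narrowest. Equal list lengths left 1711 regions, and the other results within their intervals except the median Sox13hi H3K27me3 percentile, which was 92.1.

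The top 50% of each histone list left 739 regions, fewer by construction. Marks then overlapped in 99.2% in Sox13hi and 98.5% in Sox13lo, and H3K27me3 lay inside in 40.6% and 41.7%. Median percentiles were 71.5 and 66.4 for H3K4me3 and 94.8 and 88.8 for H3K27me3, 7.44% had another such region within 50 kb, and 16.1% held SOX13. Percentiles were still taken within the whole deposited lists, so this cut raises them by construction. Fewer regions also leave fewer neighbours within 50 kb. Joining peaks within 1 kb gave overlap in 92.5% and 92.2%, H3K27me3 inside in 25.9% and 26.4%, and 24.9% within 50 kb of another. An overlap of 50% of the shorter peak gave overlap in 99.0% and 98.2% and H3K27me3 inside in 39.0% in Sox13hi. With the top 50% of SOX13 peaks 10.5% held SOX13. Another region lay within 10 kb for 15.5% and within 100 kb for 36.0%.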

Other observations

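Regions with a peak of all 4 histone lists also occurred outside the autosomes. They were 4.87% of merged regions on chromosomes 1 to 19, a lower share than the 33 of 169 on chromosome Y. Chromosome X had 12 such regions, 9 of them with a SOX13 peak, where 25 of all 753 merged regions had one (3.32%). Chromosome Y had 33, of which 32 had a SOX13 peak, and there 62 of all 169 merged regions had one (36.7%). SOX13 peaks were thus common on chromosome Y beyond these regions, and 4 of the 10 regions with only H3K4me3 in both populations held one. On chromosomes 1 to 19 the shares were 13.1% of shared bivalent regions and 6.2% of all merged regions. Enrichment without an antibody at these sites was not tested.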
